A study of Mus musculus with 8 samples.

Results

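*Ly6a*, *Ly6c1*, *Ly6c2*, *Ly6e*, *Cd34* and *Thy1* are 6 of the 46517 genes counted in an atlas of single mouse liver cells. The genes were picked by name, because their levels were known to differ between endothelial and mesenchymal clusters of these same cells. Levels across classes and clusters are therefore a description and carry no test. The 3491 cells were sequenced with Smart-seq2, a plate-based method that reads whole polyadenylated transcripts of sorted cells. They came from adult C57BL6/J mice and mice of the reporter strains *Pdgfrb*-GFP, *Pdgfra*-H2bGFP, *Acta2*-GFP, *Cspg4*-dsRED and *Cldn5*-GFP, alone or combined and heterozygous, at 8 weeks to 1 year of age. Endothelial cells were gated on CD31, VE-Cadherin or *Cldn5*-GFP, mesenchymal cells on *Pdgfra*-H2bGFP, *Pdgfrb*-GFP, *Acta2*-GFP or PDGFRα, macrophages on CD68 and cholangiocytes on EPCAM, while hepatocytes were sorted without a marker. No member was itself used as a gate. The authors did use *Ly6a* and *Cd34* among the markers that named portal vein endothelium, and *Thy1* among those that named lymphatic endothelium or described peribiliary fibroblasts, so high levels there are partly built into the names.

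The samples were 8 pools of cells, 1 for each sex in each of 4 cell classes. The endothelial class held 451 female and 655 male cells, and the mesenchymal class held 339 female and 998 male cells. The immune class held 396 female and 255 male cells, and the epithelial class held 39 female and 358 male cells. Each class and sex thus had a single pool and no replicate. The labels do not tie a cell to a mouse, and the reporter and gate behind a cell set which cells could be caught. Each of the 22 plates held cells of 1 sex, so sex and plate cannot be told apart, and a single plate gave the female mesenchymal pool. The total count per cell ran from 47063 to 1128421 with a median of 228708. A level is given here as CPM, the counts of a gene scaled to a total of 1000000 gene counts, after summing over the cells of a pool, and clusters carry the authors' names (#e for endothelial, #m mesenchymal, #i immune, #p epithelial).

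Proteins of the Ly6 family are small, cysteine-rich and mostly held in the outer cell membrane by a glycosylphosphatidylinositol (GPI) anchor. *Ly6a* encodes SCA1, used to sort mouse stem and progenitor cells and known from vessels of many organs, while *Ly6c1* and *Ly6c2* together carry the Ly6C antigen of monocytes and endothelium. *Cd34* encodes a transmembrane sialomucin of haematopoietic progenitors, small vessels and fibroblasts, and *Thy1* a GPI-anchored immunoglobulin-like protein of T cells, neurons and fibroblasts.

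The 4 Ly6 members lie together on chromosome 15 of GRCm38. *Ly6e* occupies chr15:74955051-74959905 on the plus strand. *Ly6a* (chr15:74994877-74998031), *Ly6c1* (chr15:75044018-75048830) and *Ly6c2* (chr15:75108158-75111970) lie on the minus strand. *Cd34* lies at chr1:194938819-194961279 and *Thy1* at chr9:44043384-44048579, both on the plus strand.

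The first 100 coding bases of *Ly6c1* and *Ly6c2* are shown because the counts of this pair rest on few differences. Both are given 5′ to 3′ from GENCODE M21 transcripts on GRCm38, with introns left out. The coding sequences span chr15:75045402-75048511 for *Ly6c1* and chr15:75108543-75111667 for *Ly6c2*, and capitals mark the 6 bases of this stretch that differ.
Ly6c1: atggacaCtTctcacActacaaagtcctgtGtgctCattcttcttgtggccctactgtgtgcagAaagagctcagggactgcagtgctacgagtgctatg
Ly6c2: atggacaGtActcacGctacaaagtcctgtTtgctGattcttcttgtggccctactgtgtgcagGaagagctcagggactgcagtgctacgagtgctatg
Of the 396 coding bases, 387 were identical and 9 differed (97.7% identity), with 1 run of 188 identical bases. A read of 50 bases that falls wholly inside the coding sequence could not be assigned to 1 of the pair at 162 of 347 positions (46.7%). *Ly6a* matched *Ly6c1* at 82.8% and *Ly6c2* at 82.3% of aligned positions. *Ly6e* was more distant, at 55.6% identity with *Ly6a*. Upstream, the 250 bases before the RefSeq starts of *Ly6c1* and *Ly6c2* (GRCm38.p6) shared a stretch of 229 aligned positions, of which 168 (73.4%) were identical.

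Over all annotated exons, 32.8% of the 50-base words of *Ly6c1* also occurred in another gene, compared with 18.97% for *Ly6a* and 14.4% for *Ly6c2*. None occurred for *Ly6e* or *Thy1*, and 0.447% did for *Cd34*. How reads that match several genes were handled is not given in the sources used here, so low counts of *Ly6c1* or *Ly6c2* beside a high level of the other are uncertain. This was bounded where each gene was highest. In community cluster #e5c, *Ly6c2* counts were 16 against 4312 for *Ly6c1*, or 0.371%. In community cluster #i7c, *Ly6c1* counts were 40 against 6947 for *Ly6c2*, or 0.576%.

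*Ly6a* was broad and highest in the portal endothelium. Summed over a class, it stood at 754 CPM in female and 624 CPM in male endothelial cells. The mesenchymal pools held 339 CPM (female) and 487 CPM (male), and the immune pools 432 and 455 CPM. The epithelial pools were lowest, at 52.5 and 78.6 CPM. Of all *Ly6a* counts, 45.0% fell in endothelial and 34.1% in mesenchymal cells.

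Of the 30 multilevel clusters, #e2 stood first for *Ly6a*, with 1772 CPM in its 60 female and 2045 CPM in its 68 male cells. These cells are labelled as portal vein (114 cells) and peribiliary vasculature (14 cells), the small vessels around bile ducts. The 8 plates that gave #e2 cells ranged from 1392 to 3050 CPM. The highest pool of any other cluster was female #e5, sinusoidal endothelium, at 1103 CPM against 748 CPM in its male pool. The pools of #e2 did not overlap any other.

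The next clusters for *Ly6a* were portal fibroblasts and other endothelium. Male-only #m10 stood at 912 CPM, #m1 at 707 (female) and 929 (male) CPM, and male-only #m8 at 755 CPM, all labelled portal fibroblasts. The central vein clusters #e7 (626 and 783 CPM) and #e1 (696 and 610 CPM) lay among them. From #m10 to #m5 (603 and 640 CPM), these neighbours did not differ beyond the spread of their pools.

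*Ly6a* was low in contractile cells. Arterial smooth muscle #m2 had 21.1 CPM in 110 female and 7.39 CPM in 127 male cells, and the smooth muscle cluster #m6 (labelled elaSMC) had 26.3 CPM in 25 female and 6.25 CPM in 9 male cells. Lymphatic endothelium #e4 also lay low for an endothelial cluster, with 26.5 CPM in 13 female and 185 CPM in 9 male cells.

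Counted per cell, 96.9% of #e2 cells (124 of 128, 95% Clopper-Pearson interval 92.2 to 99.1%) held 20 or more *Ly6a* counts. Such intervals cover counting error only. The same limit was met by 89.0% of #m1 cells (161 of 181), 64.3% of #m4 cells (63 of 98) and 0.422% of #m2 cells (1 of 237). A limit of 20 is used because low counts were widespread, also in clusters with few high ones. In #m2 cells of the female plate, 94.5% held 1 to 19 *Cd34* counts, with a median count of 8, and 4.55% held 20 or more. On 2 male plates, 78.7% and 54.8% of #m2 cells held 1 to 19.

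**Figure D1:**
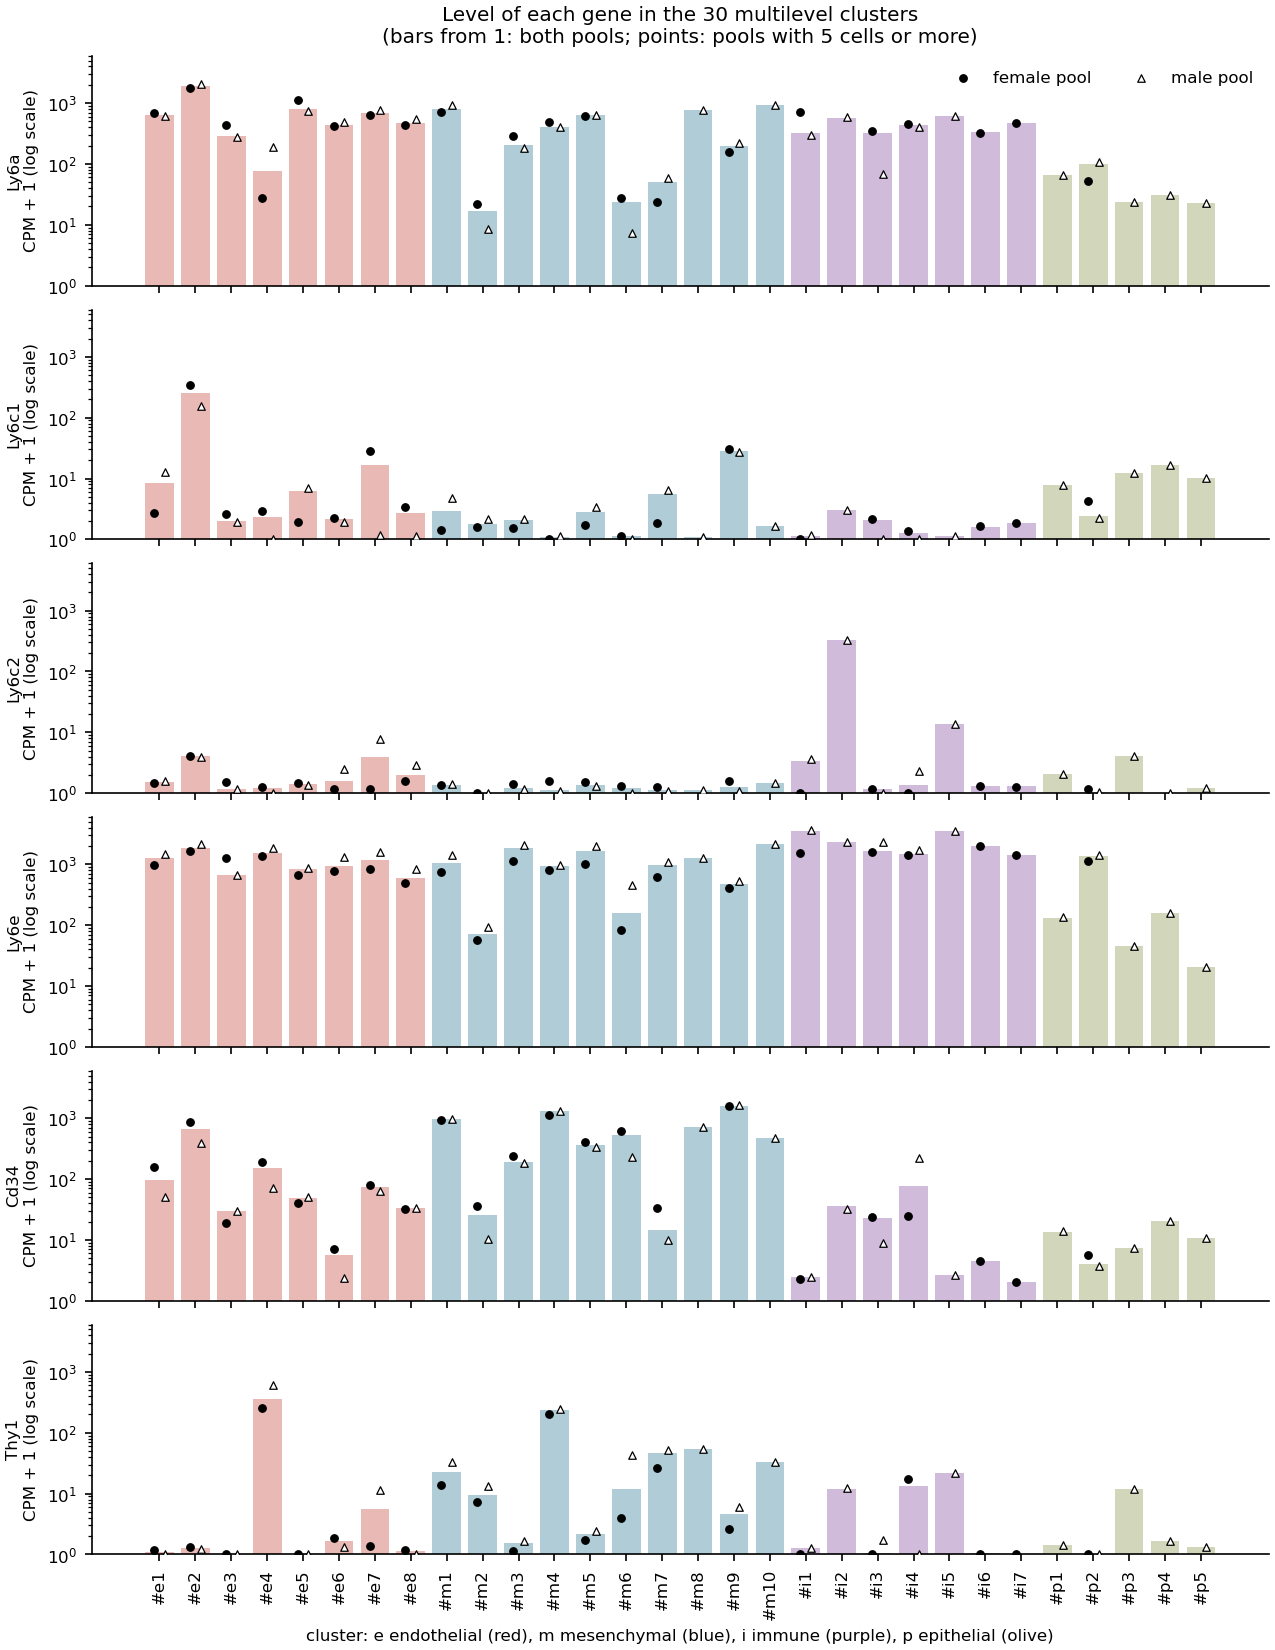
The level of each member (CPM + 1, log axis) is plotted for the 30 multilevel clusters, with bars for both pools together and points for the female and male pools of 5 or more cells. *Ly6a* was highest in #e2 (1772 and 2045 CPM), *Cd34* in #m9 (1596 and 1625 CPM) and *Thy1* in #e4 (252 and 610 CPM).

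*Ly6c1* was an endothelial gene with a narrow peak. The endothelial pools held 64.1 CPM (female) and 17.6 CPM (male), and 84.3% of its counts. Every other pool lay at or below 5.11 CPM. Only 63 of 3491 cells (1.80%) held 20 or more *Ly6c1* counts, and 40 of them were in #e2.

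Within #e2, the level of *Ly6c1* differed between its community clusters. The 14 peribiliary vessel cells of #e5c had 1232 CPM in 9 female and 551 CPM in 5 male cells. The 114 portal vein cells of #e2c had 189 CPM (female) and 112 CPM (male), so the pools of the 2 clusters did not overlap. A count of 20 or more was reached in 12 of 14 and in 28 of 114 of these cells. Without #e5c, a check added after the data were seen, the level in #e2 was 152 CPM instead of 256 CPM. Its plates were uneven, since #e2 plates ran from 0.601 to 364 CPM for *Ly6c1*.

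Outside endothelium, *Ly6c1* was next seen in #m9, fibroblasts that the authors named for *Wt1*, at 29.6 CPM (female) and 26.2 CPM (male). It sat in community cluster #m11c (151 CPM in 5 female and 40.3 CPM in 48 male cells) and stood at 1.25 CPM in the other community cluster of *Wt1* fibroblasts, #m12c. In #m11c, 6 of 53 cells held 20 or more counts, and its plates ran from 0 to 151 CPM. Only 1 cell of the whole female mesenchymal pool held 20 or more, so the female level rests on very few cells.

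*Ly6c2*, the near-copy, was an immune gene here. The male immune pool held 112 CPM and the female immune pool 0.230 CPM, and every pool of another class lay at or below 1.14 CPM. In all, 95.1% of its counts were immune. Of the 19 cells with 20 or more *Ly6c2* counts, 18 were in #i2 and 1 was in the B cell cluster #i5.

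The 16 male cells of #i7c held *Ly6c2* at 1076 CPM, and all 16 had 20 or more counts. The other community cluster labelled monocytes, #i2c, had 37.3 CPM in 39 male cells and 0 counts in 2 female cells. Without the cells of #i7c, also a check added later, *Ly6c2* over the immune class was 3.93 CPM instead of 41.2 CPM. The cells of #i7c also held *Siglech* at 4157 CPM and *Ccr9* at 1031 CPM, the lectin and chemokine receptor used to recognise plasmacytoid dendritic cells, compared with 20.9 and 12.5 CPM in #i2c. *Cx3cr1*, a monocyte receptor, was 1.08 CPM in #i7c and 1181 CPM in #i2c. The study's text calls #i7c dendritic cells by these markers, while the deposited label of its cells is Monocytes, so the cluster is called here by its number. Because no #i7c cell was female and female #i2 held 2 cells, the difference between the immune pools cannot be told apart from which cells each plate caught.

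The 2 genes were not found at a high level in the same cell. Of 3491 cells, 77 held at least 1 count of both *Ly6c1* and *Ly6c2*, and 0 held 20 or more of both, which allows a share of up to 0.0859%. Only 63 cells reached 20 counts of *Ly6c1* and 19 of *Ly6c2*, so 0 shared cells does not show that the genes exclude each other. After each cell was thinned to 50000 counts, 14 cells held both at 1 count and 0 at 5 counts.

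**Figure D2:**
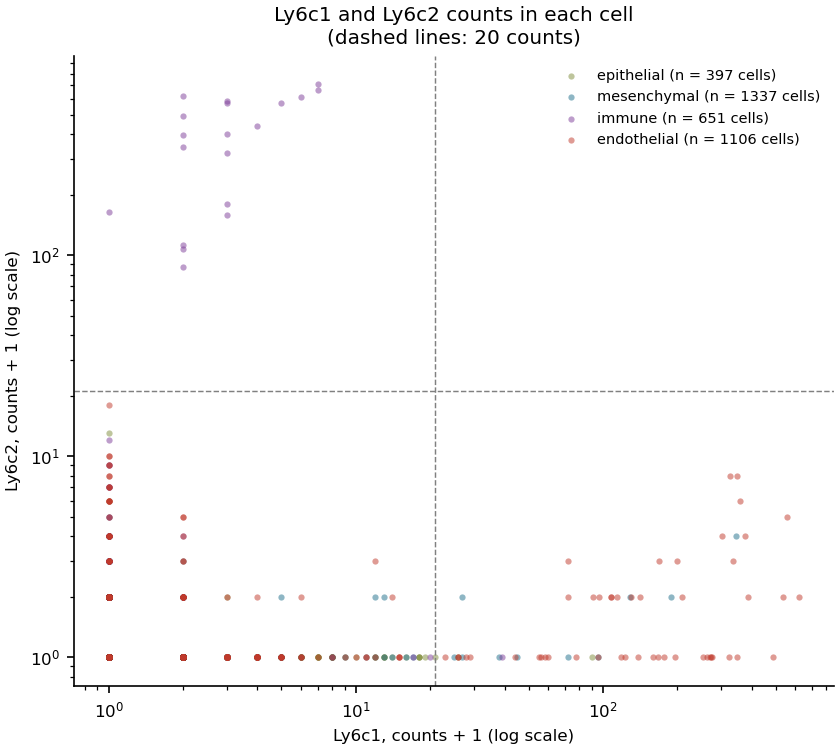
Counts of *Ly6c1* and *Ly6c2* (counts + 1, log axes) are plotted with 1 point a cell, coloured by class, and dashed lines mark 20 counts. The cells with many counts lie along 1 axis or the other, and 0 cells held 20 or more of both. That limit was reached by only 63 cells for *Ly6c1* and 19 for *Ly6c2*.

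*Ly6e*, which encodes a GPI-anchored protein known from immune cells and as a receptor for syncytin in the placenta, was the most widespread member. A count of 20 or more was reached in 2761 cells (79.1%). The immune pools held 1520 CPM (female) and 3042 CPM (male). The endothelial pools held 962 and 1097 CPM, the epithelial pools 1097 and 899 CPM, and the mesenchymal pools 518 and 1379 CPM.

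The first places for *Ly6e* were immune. B cells #i5, from males alone, held 3523 CPM, and Kupffer cells #i1 held 1511 CPM in 9 female and 3640 CPM in 108 male cells. Cluster #i2, whose cells are labelled mostly as monocytes but include #i7c, had 2333 CPM in the male pool. Portal fibroblasts #m10 (2164 CPM, male), Kupffer cells #i6 (1978 CPM in 86 female cells) and portal endothelium #e2 (1658 and 2166 CPM) followed. The pools of #i1 spanned those of the next clusters, so the order of these clusters did not exceed the pool spread.

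At the low end stood hepatocytes and the smooth muscle clusters #m2 and #m6, but not venous smooth muscle #m7 (609 CPM female, 1076 CPM male). Arterial smooth muscle #m2 had 55.8 CPM (female) and 91.3 CPM (male), and its 4 plates ran from 55.8 to 163 CPM. In #m6 the female pool had 82.6 CPM and the male pool 461 CPM. The hepatocyte clusters had 19.7 CPM in #p5, 43.7 in #p3, 132 in #p1 and 160 in #p4. A count of 20 or more was seen in 10.1% of #m2 cells and in 100% of #i5 and #m10 cells.

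*Cd34* was mainly mesenchymal. The mesenchymal pools held 598 CPM (female) and 627 CPM (male), and 84.4% of all counts. The endothelial pools held 208 and 69.4 CPM, the immune pools 6.74 and 21.5 CPM, and the epithelial pools 4.53 and 7.004 CPM. A count of 20 or more was reached in 781 cells (22.4%).

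Fibroblast clusters led in an order that exceeded the spread of their pools. The *Wt1* fibroblasts #m9 had 1596 CPM (female) and 1625 CPM (male). Peribiliary fibroblasts #m4 had 1131 and 1324 CPM, and portal fibroblasts #m1 had 937 and 983 CPM. Male-only #m8 followed at 727 CPM, inside the range of the #e2 pools. Each of #m6 (607 and 232 CPM), #m10 (471 CPM, male) and #m5 (407 and 339 CPM) overlapped that range too. Plates overlapped more than pools, since #m9 plates ran from 1040 to 1915 CPM and #m4 plates from 1124 to 1854 CPM.

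In the endothelium, *Cd34* was highest in #e2, where it stood at 876 CPM in female and 385 CPM in male cells. Lymphatic endothelium #e4 followed at 188 CPM in 13 female and 71.1 CPM in 9 male cells. Its pools overlapped those of central vein #e1 (155 CPM female, 49.2 CPM male). The peribiliary vessels #e5c had 1665 CPM (female) and 996 CPM (male), above the portal vein cells #e2c at 740 and 321 CPM. In #e2c, 54 of 114 cells held 20 or more counts, and the spread between cells was wide. The median cell of #e2c had 59.7 CPM and the 90th percentile 1399 CPM. Sinusoidal cluster #e6 had 4.66 CPM and Kupffer cells #i7 1.03 CPM.

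*Thy1* was a rare member, with 20 or more counts in 141 cells (4.04%). The mesenchymal pools held 13.02 CPM (female) and 48.0 CPM (male), and 80.9% of the counts. The endothelial pools held 8.56 and 6.42 CPM, the immune pools 1.20 and 8.42 CPM, and the epithelial pools 0 and 0.641 CPM.

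The highest *Thy1* levels were in lymphatic endothelium #e4 (252 CPM in 13 female and 610 CPM in 9 male cells) and peribiliary fibroblasts #m4 (199 CPM in 9 female and 243 CPM in 89 male cells). A count of 20 or more was seen in 13 of 22 #e4 cells (59.1%, interval 36.4 to 79.3%) and in 63 of 98 #m4 cells (64.3%, 54.0 to 73.7%). On 1 male plate the 2 cells of #e4 had 2290 CPM, and without that plate #e4 stood at 229 CPM instead of 363 CPM, between the pools of #m4. In #m4, the plates ran from 44.5 to 274 CPM. The next clusters were portal fibroblasts #m8 (52.5 CPM, male) and venous smooth muscle #m7 (25.6 CPM female, 51.2 CPM male). In portal vein cluster #e2, *Thy1* was 0.285 CPM, and 0 counts were found in Kupffer cells #i7.

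The *Thy1* cells of #e4 were checked for RNA of other cells. Mesenchymal markers summed to 1846 CPM over #e4, of which *Reln*, the secreted glycoprotein reelin, made up 1066 CPM. The summed mesenchymal level had a median of 1812 CPM over the 13 *Thy1* cells and 1183 CPM over the other 9 cells. Of the 13 cells with 20 or more *Thy1* counts, 0 held 20 or more counts of *Pdgfrb*, *Col1a1*, *Col1a2*, *Col3a1*, *Dcn*, *Lum* or *Acta2*, while *Reln* reached it in 12, against 4 of the other 9 cells. Lymphatic markers reached it in 12 (*Mmrn1*), 11 (*Ccl21a*), 10 (*Flt4*), 8 (*Prox1*) and 4 (*Pdpn*) of the 13 cells. In the other 9 cells the counts were 7, 6, 6, 1 and 5 in the same order, and *Dcn* reached the limit in 3 of them and each of the other 6 mesenchymal genes in 1. Over #e4, immune markers summed to 687 CPM, with 2 of 8 at 10 CPM or more, B cell markers to 338 CPM (5 of 5) and hepatocyte markers to 335 CPM (5 of 6). Mesothelial markers summed to 898 CPM, monocyte and dendritic cell markers to 415 CPM and cholangiocyte markers to 200 CPM, each with 1 gene at 10 CPM or more and with 4 of 5, 4 of 7 and 3 of 6 at 0. The markers of T and NK cells, another source of *Thy1*, summed to 3.86 CPM, and 6 of 9 were at 0. Apart from these values, the part of other cells' RNA in the *Thy1* level was not tested.

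**Figure D3:**
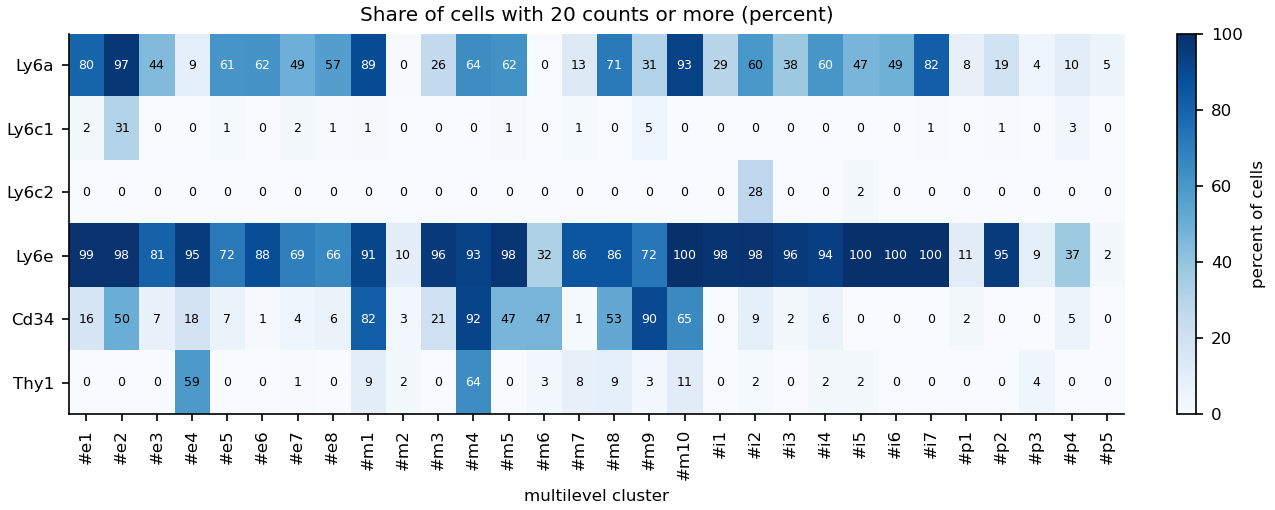
The heat map gives the percent of cells with 20 or more counts for each member (rows) and multilevel cluster (columns). *Ly6a* reached 96.9% in #e2, and *Thy1* 59.1% in #e4 and 64.3% in #m4.

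The members marked different combinations in the same cell. With 20 or more counts as the limit, 553 cells held none of the members, 1122 held 1, 1208 held 2 and 507 held 3. Another 99 cells held 4 and 2 cells, both in #m9, held 5. *Ly6a* and *Cd34* shared 556 cells, while 1144 held *Ly6a* without *Cd34* and 225 the reverse.

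The 2 community clusters of *Wt1* fibroblasts stood further apart in *Ly6a* than in *Cd34*. *Ly6a* was 391.8 CPM in #m11c (692 female, 336 male) and 27.9 CPM in #m12c (26.7 female, 29.7 male). The 4 plates of #m11c ran from 78.0 to 692 CPM and the 3 of #m12c from 10.4 to 41.4 CPM, without overlap. A *Ly6a* count of 20 or more was found in 33 of 53 #m11c cells (62.3%, interval 47.9 to 75.2%) and in 4 of 60 #m12c cells (6.67%, 1.85 to 16.2%). *Cd34* was 1980 CPM in #m11c (2162 female, 1946 male) and 1386 CPM in #m12c (1556 female, 1148 male). It reached 20 counts in all 53 and in 50 of 60 cells.

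The hepatic stellate cells, the vitamin A-storing pericytes of the liver, differed in *Cd34* between #m3c (labelled cHSC) and #m7c (labelled HSC). The paper describes cHSC as a capsular population and HSC as cells of the sinusoid. *Cd34* was 278 CPM (22 female cells) and 287 CPM (91 male cells) in #m3c, against 36.9 CPM in 68 male cells of #m7c. *Ly6a* was 247 CPM (female) and 116 CPM (male) in #m3c and 272 CPM (male) in #m7c. The 4 female cells of #m7c were too few for a pool. Few cells held both genes at 20 counts, with 3 of 113 cells in #m3c and 1 of 72 in #m7c.

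Of the 141 *Thy1* cells, 132 also held 20 or more counts of *Ly6e*, 93 of *Cd34*, 88 of *Ly6a*, 2 of *Ly6c1* and 0 of *Ly6c2*. In #m4, 57 of 98 cells held *Cd34* and *Thy1*, 60 held *Ly6a* and *Cd34*, and 40 held *Ly6a* and *Thy1*. In #e4, where *Ly6a* was low, 0 of 22 cells held *Thy1* together with *Ly6a* at 20 counts, and 19 did at 1 count.

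In the peribiliary vessels #e5c, 9 of 14 cells held *Ly6c1* and *Cd34*, compared with 18 of 114 in #e2c. All 14 #e5c cells held 20 or more counts of *Ly6a* and of *Ly6e*. Of the 19 *Ly6c2* cells, all 19 held *Ly6e*, 14 held *Ly6a* and 0 held *Cd34*.

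**Figure D4:**
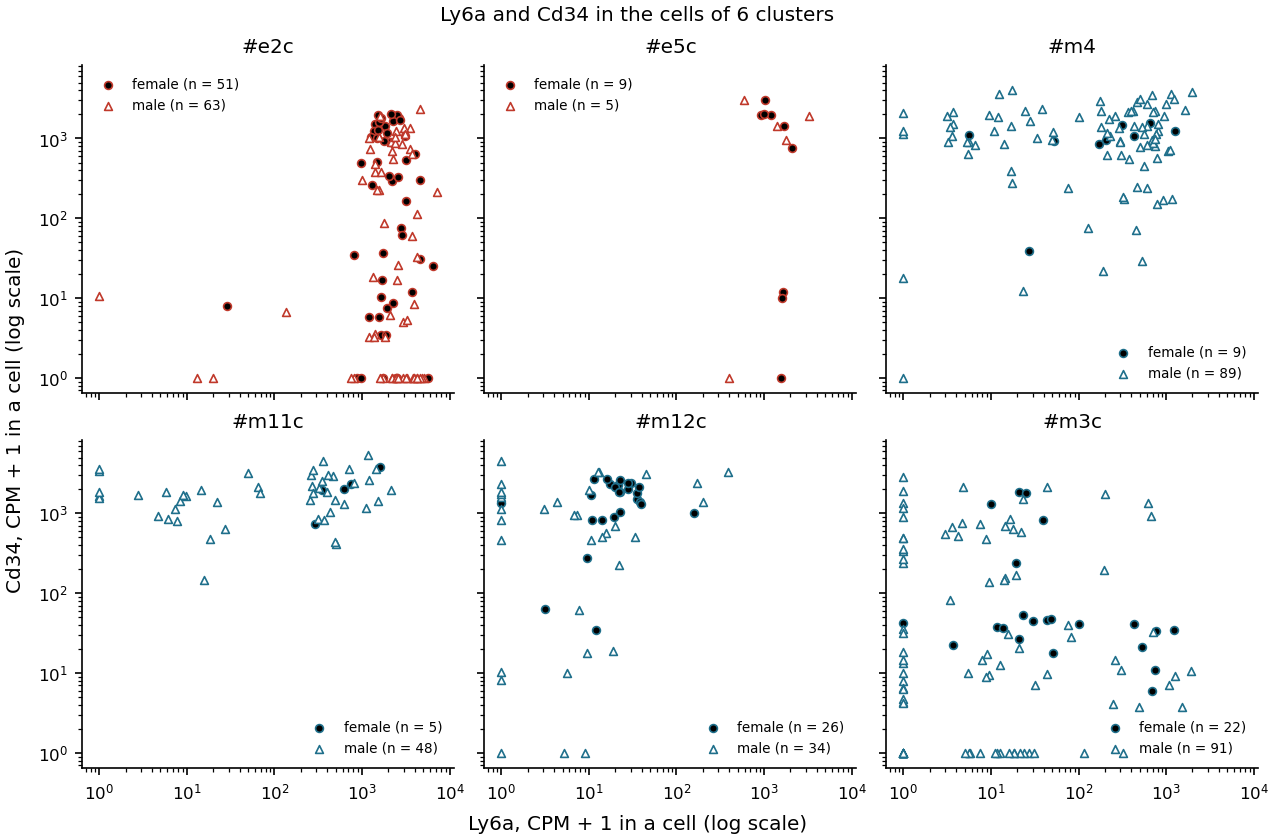
*Ly6a* and *Cd34* (CPM + 1, log axes) are plotted in 6 clusters, 1 point a cell, with separate symbols for female and male cells. Cells with 20 or more counts of both numbered 33 of 53 in #m11c, 4 of 60 in #m12c and 3 of 113 in #m3c.

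Levels of different genes were compared per kilobase of the longest coding transcript. In #e2, *Ly6a* was 1986 CPM per kb, ahead of *Ly6e* (829). *Ly6c1* (304) and *Cd34* (255) followed, in the reverse order (180.5 and 212) when the cells of #e2c are taken alone. In #e5c the pools differed in order, with *Ly6c1* at 1460 and *Ly6a* at 1305 CPM per kb in the female cells and 653 and 1402 in the male cells. How shared reads were counted, which is not given, bears on this pair. In the fibroblasts #m9, *Cd34* led at 632 CPM per kb, ahead of *Ly6e* (212) and *Ly6a* (207). *Ly6a* (410.3) lay above *Ly6e* (224) in #m11c and below it in #m12c (29.3 and 156). In #m4, *Cd34* (510), *Ly6a* (428) and *Ly6e* (413) were nearer to each other, with *Thy1* at 137. In #i7c, *Ly6c2* (1309) led *Ly6e* (1087) and *Ly6a* (1038).

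Other genes of the same families and pathways were read from lists. Of 33 other Ly6 superfamily genes, 8 reached 50 CPM in a cluster, against 11634 of 46517 genes. *Gpihbp1*, the endothelial carrier of lipoprotein lipase, peaked in sinusoidal #e5 (1420 CPM female, 2084 male). *Cd59a*, a complement inhibitor, peaked in central vein #e1 (1098 female, 1154 male), *Ly6d* in B cells #i5 (1246) and *Plaur*, the urokinase receptor, in #i2 (231). *Ly6g2* (#p1, 190), *Lynx1* (#m6, 165), *Lypd1* (#m1, 97.2) and *Lypd6* (#e4, 87.9) were the rest.

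Of 7 other genes of the CD34 family and further sialomucins, 5 reached 50 CPM, against 11634 of 46517 genes. *Cd164* reached it in all 30 clusters, with its highest level in #i1 (1515 CPM). *Emcn* (endomucin) peaked in #e6 (751), *Podxl* (podocalyxin) in #e2 (433), *Spn* in #i2 (66.7) and *Podxl2* in #m5 (66.5).

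Of 5 binding partners of CD34, all 5 reached 50 CPM, among them *Prkcd* in #i2 (434 CPM), *Crk* in #e7 (316) and *Prkca* in #i2 (95.3). Of 8 partners of THY1, 7 did, led by *Adgre5* in #i6 (1298), *Itgb2* in #i7 (758), *Sdc4* in #p2 (703) and *Itgb5* in #i6 (586). Of 25 GPI anchor genes measured, 20 reached 50 CPM in at least 1 cluster, led by *Pigs* (#i7, 275), *Pigk* (#m6, 221), *Pgap2* (#i7, 193) and *Gpaa1* (#i6, 176). Of 10 adventitial fibroblast markers, 9 reached 50 CPM, led by *Dpt* (#m8, 1880), *Dpp4* (#e6, 1005), *Cd55* (#e3, 944) and *Pdgfra* (#m4, 859). Over all genes, 11634 of 46517 reached 50 CPM. These lists were chosen with earlier results of these data known, so their counts are a description.

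The genes whose pattern over the 30 clusters was most like each member were found by Pearson's r of log2(CPM + 1) over 16593 genes. Clusters share plates and depth, so r is a description. For *Ly6a* they were *Icam1* (r = 0.84), an adhesion molecule, *Tmem229b* (0.80) and *Slc26a11* (0.80). For *Ly6c1* they were *Gda* (0.76), *Ret* (0.74) and *Cytl1* (0.73), and for *Ly6c2* *Cd7* (0.97), *Gm11775* (0.96) and *Ccr1* (0.93).

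For *Ly6e* they were *H2-D1*, an MHC class I gene (0.90), *Sting1* (0.90) and *Il10rb* (0.89). For *Cd34* they were *Gm16897* (0.92), *Cdon* (0.88) and *Timp1* (0.88), and for *Thy1* *Emid1* (0.82), *2010204K13Rik* (0.78) and *Apba2* (0.78). Among the members, *Ly6a* and *Ly6e* gave r = 0.79, *Cd34* and *Thy1* 0.43, *Ly6a* and *Cd34* 0.27, and *Ly6c1* and *Ly6c2* 0.08.

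Sex was the one contrast the choice of genes did not use. It was tested with edgeR's quasi-likelihood test over the 8 pools with cell class as a block. Of 24046 genes tested, 5 were called (0.0208%) at a Benjamini-Hochberg adjusted p under 0.05, 2 higher in females and 3 in males, and 1905 had an unadjusted p under 0.05. None of the 6 members was called, and none had an unadjusted p under 0.05 in edgeR. DESeq2 called 596 genes and 0 members, and its lowest unadjusted p among the members was 0.0204, for *Thy1* (adjusted p = 0.22).

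The female minus male difference of *Ly6e* was -0.65 on the log2 scale (SE 0.33, adjusted p = 0.68 in edgeR). For *Thy1* it was -1.92 (SE 0.90, adjusted p = 0.65 in edgeR), for *Ly6a* -0.30 (SE 0.28, adjusted p = 0.81 in edgeR) and for *Cd34* -0.30 (SE 0.55, adjusted p = 0.91 in edgeR). *Ly6c1* gave 0.22 (SE 0.64, adjusted p = 0.95 in edgeR) and *Ly6c2* -1.56 (SE 1.61, adjusted p = 0.83 in edgeR). With 1 pool per class and sex, these p-values measure the spread of the difference between classes.

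Within clusters, *Ly6e* was higher in the male pool in 19 of 20 clusters with at least 5 cells of each sex, with a median male to female ratio of 1.57. The exception was #e3, with 6 female cells. Among all genes tested, 140 of 24046 (0.582%) were higher in males in 19 or more of the 20. When sums per multilevel cluster and sex were tested instead, edgeR called *Ly6e*, with a female minus male difference of -0.74 (log2, SE 0.14, adjusted p = 0.0039), beside 279 of 22269 genes called higher in males (1.25%). The clusters share plates of 1 sex, so their sums are not independent, and sex and plate cannot be told apart. None of the other members was called in that fit. With sums per plate and class, *Ly6e* was not called (-0.49, SE 0.39, adjusted p = 0.79 in edgeR).

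**Figure D5:**
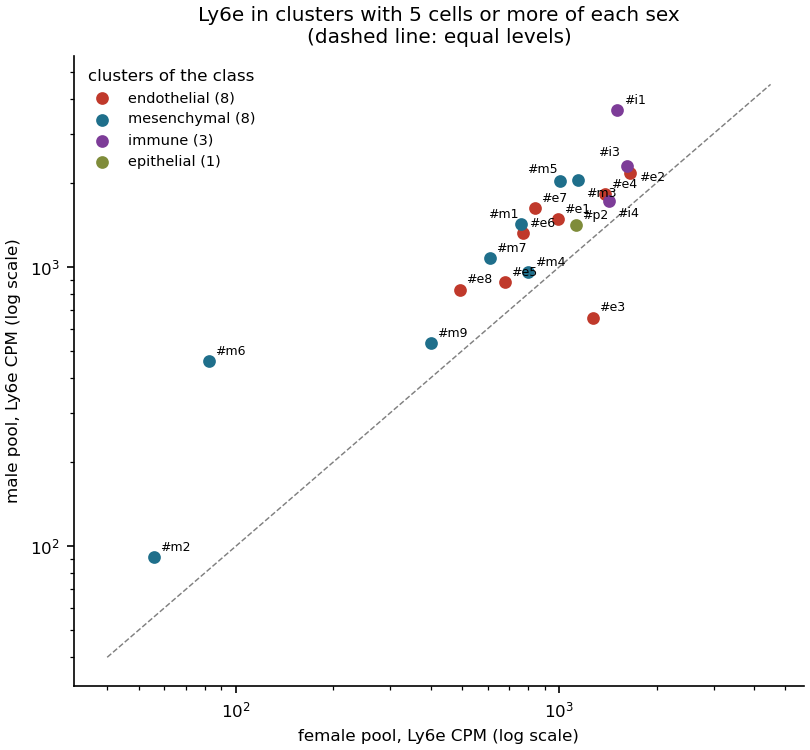
The level of *Ly6e* (CPM, log axes) in the male pool is plotted against the female pool, 1 point for each multilevel cluster with 5 or more cells of each sex, and the dashed line marks equal levels. The male pool lay higher in 19 of 20 clusters.

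No gene of the other lists was called for sex in the edgeR test over the 8 pools, with 25 of the 33 Ly6 superfamily genes, 5 of the 7 sialomucins, all partner genes and 25 GPI anchor genes tested.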

How the data were processed

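Single-cell Smart-seq2 libraries of 3491 cells were analysed. The authors deposited raw read counts per gene and cell. Per the labels, reads went through bcl2fastq, Bowtie or Bowtie2, featureCounts of Subread and Seurat, on GRCm38 (mm10), with versions of the aligner and counter not given in the sources used here. Totals exclude the 92 ERCC spike-ins. Clusters and labels were the authors' own. Per their methods, the authors gated out doublets by scatter and later removed cells with very many expressed genes as putative doublets. Doublets were not called again. Counts were summed per unit and sex and divided by the sum of gene counts (CPM). Shares of cells used 20 or more counts with exact 95% Clopper-Pearson intervals, and cells were also thinned to 50000 counts, leaving out 13 shallower cells. Sex was tested with edgeR 4.0.16 (R 4.3.3, TMM, filterByExpr, class as block), which was also tried on simulated data. DESeq2 1.42.0 was used as an alternative and was not tried on simulated data. Python 3.11.15 with pandas 2.3.3 and scipy 1.17.1 did the rest. Coding sequences came from GENCODE M21 transcripts. Named genes were the 6 members, listed genes at 50 CPM or more (at most 12 for the Ly6 superfamily and sialomucins, 4 for other lists) and the 3 genes most like each member. A listed gene that met this rule is not reported here. The members and lists were chosen with earlier results of these data known. Replicate pools within a class and sex do not exist, and the labels give no separate mice.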

Additional observations from a re-analysis of the deposited data

Results flagged for a closer look

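*Cd34* differed in opposite directions between the sexes in 2 classes. The female minus male difference of log2(CPM + 1) was 1.57 in endothelial cells and -1.54 in immune cells, a gap of 3.11. With 1 pool per class and sex, this difference was not tested. In the endothelium it followed #e2 (876 CPM female, 385 male) and #e1 (155 and 49.2 CPM). In male immune cells, most counts lay in #i2 (698 counts, 31.5 CPM in 63 cells) and #i4 (687 counts, 224 CPM in 11 cells). Female #i4 held 23.5 CPM in 37 cells. Of the 48 cells of #i4, 24 were labelled Cont, and over #i4 endothelial markers summed to 1744 CPM and mesenchymal markers to 1146 CPM, whose part in the difference was not tested.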

How the results depend on the processing

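Of the values that answer a comparison, 42 values under the alternatives met the rule for no change and 30 did not. For levels and shares, the limit was the standard deviation between the female and male pools. This is a difference of sex and plate, not a replicate spread. Where 1 pool alone had 5 or more cells (*Ly6c2* in #i2, *Ly6e* in #i5), a counting-error width was used. A move from 3523 to 3559 CPM for *Ly6e* in #i5 thus did not meet the rule. For counts, the limit was 1.5 times the main count. The number of members called for sex rose from 0 to 1 with sums per multilevel cluster and sex. The sex difference (female minus male log2) turned for *Ly6a* to 0.0367 with cluster sums. For *Ly6c1* it turned to -0.66 with sums per plate and class and to -0.35 without the endothelial pools (range -0.35 to 0.62 over the 4 classes left out). For *Cd34* it turned to 0.0442 without the class block, 0.48 with cluster sums, 0.11 with plate sums and 0.19 without the immune pools (range -0.94 to 0.19), and none of these was called. Genes called numbered 5 with no filter on low counts, 3 without the class block, 329 with cluster sums, 119 with plate sums, 7 after thinning, 596 in DESeq2 and 0 to 5 when both pools of a class were left out. The median difference of all genes moved from -0.11 in edgeR to 0.00 in DESeq2. As the mean of cell CPM and after thinning, levels were 2281 and 2305 (*Ly6a*, #e2), 291 and 293 (*Ly6c2*, #i2), 3559 and 3559 (*Ly6e*, #i5), and 1587 and 1586 CPM (*Cd34*, #m9). Shares at 20 counts, and at 5 counts after thinning, which was added after seeing the data, were 96.9 and 96.9% (*Ly6a*, #e2), 89.9 and 89.9% (*Cd34*, #m9), and 59.1 and 50% (*Thy1*, #e4). In the female pools alone, 1 (*Ly6a*), 0 (*Ly6c2*) and 0 (*Ly6e*) of the first 3 clusters were kept. Cells with *Ly6c1* and *Ly6c2* numbered 77 at 1 count, 0 at 20, 14 thinned and 0 thinned at 5. Cells with *Ly6a* and *Cd34* were 31 in #m11c thinned at 5, 4, 25 and 3 in #m12c, and 3, 31 and 3 in #m3c (at 20, thinned, thinned at 5). Cells with *Cd34* and *Thy1* in #m4 were 57 at 20 counts and 53 thinned at 5. The cause of these moves was not tested beyond the lower limit or depth each setting sets. Leaving out 1 plate (*Thy1* in #e4 and #m4), #i7c or #e5c was also added after seeing the data. The class term pairs the 2 pools of a class, and without this block the members called stayed at 0.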

Other observations

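Some cells carried labels outside the main cell types. The 26 immune cells that the authors labelled Cont held *Cd34* at 88.7 CPM, *Thy1* at 28.3 CPM and *Ly6a* at 352 CPM. The 24 cells labelled Cyc held *Cd34* at 65.5 CPM and *Ly6a* at 490 CPM, with 0 *Thy1* counts. The 6 mesothelial cells of #m9 held *Cd34* at 434 CPM and *Ly6a* at 13.9 CPM.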
